A study of Homo sapiens with 2 samples.

Results

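The genes described here are 38 members of the tRNA charging machinery: 20 cytosolic aminoacyl-tRNA synthetases, 16 mitochondrial ones and the 2 scaffold proteins AIMP1 and AIMP2. They were chosen by gene symbol from a list of names. The rule itself used no measured value, but the list was drawn up with earlier results of these data known. Each was found among the 58884 genes of the count table. All 38 had at least 20 counts over both libraries, the minimum for a comparison, which 18078 genes reached. RNA-seq was run on SAS, an established line of human tongue squamous carcinoma cells, grown in DMEM with fetal bovine serum. The LKO cells carried the control lentiviral vector pLKO.1 and the shKDM4C cells a lentiviral hairpin against the histone demethylase KDM4C. Both were selected with puromycin, and there was 1 library per condition, so neither the spread between cultures nor that between hairpins was measured. The sources used here do not name which of the study's 2 hairpins the sequenced cells carried. The comparison asks how the transcripts of the charging enzymes differed between cells with and without the knockdown.

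An aminoacyl-tRNA synthetase joins an amino acid to the tRNAs that carry its anticodons, and the ribosome reads the charged tRNA without checking the amino acid again. The cytosol and the mitochondrion mostly use separate nuclear genes for this, with names ending in 1 and 2, whereas GARS1 and KARS1 each encode the enzyme of both compartments and EPRS1 charges both glutamate and proline. Several cytosolic enzymes sit in a multisynthetase complex held together by AIMP proteins. When uncharged tRNA accumulates, the kinase EIF2AK4 (GCN2) phosphorylates eIF2 alpha and the transcription factor ATF4 is translated. ATF4, paired with C/EBP proteins, binds C/EBP-ATF response elements in genes of amino acid supply, many cytosolic synthetase genes among them. Human disease genes are found in both sets, with GARS1, YARS1 and AARS1 known from inherited neuropathy.

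Promoters are shown first because 1 short element, searched for with the ratios already known, was found in most of the cytosolic genes that were lower. The core of the C/EBP-ATF response element, TGATGNAA or its reverse complement TTNCATCA, was searched on both strands in RefSeq promoters (GRCh38.p14, 250 bases before to 50 after a transcription start). An entry was given for 32 members, 11 of them with more than 1 start. The core was found in 7 of 16 cytosolic synthetases, 1 of 14 mitochondrial ones, YARS2, and 0 of 2 scaffolds. It stood in 3.62% of all 35116 promoters and in at least 1 promoter of 2.88% of 10731 genes tested. The 7 cytosolic matches are printed here 5′ to 3′ on the strand of the gene, with 26 bases on each side and the matched core in capitals. The upper 5 genes were lower in the shKDM4C library and the last 2 were not.
CARS1: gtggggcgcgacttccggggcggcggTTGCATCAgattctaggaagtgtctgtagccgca
MARS1: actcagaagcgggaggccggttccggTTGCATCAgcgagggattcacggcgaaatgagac
GARS1: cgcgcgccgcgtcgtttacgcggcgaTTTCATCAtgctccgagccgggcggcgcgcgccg
IARS1: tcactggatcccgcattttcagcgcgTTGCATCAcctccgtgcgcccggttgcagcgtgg
AARS1: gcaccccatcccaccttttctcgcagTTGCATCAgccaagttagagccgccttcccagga
TARS1: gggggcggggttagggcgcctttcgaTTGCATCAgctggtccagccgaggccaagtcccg
NARS1: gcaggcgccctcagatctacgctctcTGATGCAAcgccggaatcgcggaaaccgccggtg

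The windows lie at chr11:3057392-3057451 (minus strand) for CARS1, chr12:57488038-57488097 (plus) for MARS1 and chr7:30594819-30594878 (plus) for GARS1. Those of IARS1 and AARS1 lie at chr9:92293677-92293736 and chr16:70289660-70289719, both on the minus strand. TARS1 has its window at chr5:33440941-33441000 (plus) and NARS1 at chr18:57621789-57621848 (minus). In 5 of the 7 the matched letters were TTGCATCA, in GARS1 TTTCATCA and in NARS1 TGATGCAA, the reverse complement of the first. Positions were counted from the transcription start of the promoter entry that held the match. The core began at base -2 in CARS1, -4 in MARS1, -13 in IARS1 and -33 in GARS1. In AARS1 it began at -187, in TARS1 at 3 and in NARS1 at 15. GARS1 and TARS1 also have an entry for another start, which did not hold the core. None of these matches overlapped a match to the other motifs searched (E-box CACGTG, ETS core CCGGAAG, NRF1 core GCATGCGC and GATA core AGATAA).

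KDM4C, the targeted gene, had 1047 counts in the LKO library and 242 in the shKDM4C library, of 57626616 and 50627096 counts in all. Scaled by TMM this was 17.7 against 4.91 CPM, the counts scaled to a library of fixed size, or -1.85 as the log2 of shKDM4C over LKO (95% counting interval -2.06 to -1.65). Of 10 squamous epithelial marker genes all 10 were detected, with a summed level of 1487 CPM in LKO and 1186 CPM in shKDM4C, and by the 1.5-fold rule given in the next paragraph 4 of them were lower and 1 was higher, where 15.7% and 13.0% of all genes tested were. Among the 4 lower were CDH1, with 17821 counts in LKO and 7276 in shKDM4C (log2 ratio -1.03), and PKP1, with 1191 and 571 (-0.80). The higher 1 was KRT6A, with 362 and 622 counts (log2 ratio 1.04). The summed levels of fibroblast, leukocyte and endothelial markers went from 4.80 to 6.09, from 0.372 to 0.994 and from 1.30 to 3.69 CPM, and the 5 erythroid markers had 3 and 4 counts in all. Their part in the results below was not tested.

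A gene is called lower or higher here where both a change of 1.5-fold or more was seen and the exact 95% counting interval excluded no change. The interval covers counting error only, so a call describes these 2 libraries and carries no p-value. By this rule 8 of the 38 members were lower, where 15.7% of all genes tested were, and 1 was higher, where 13.0% were. The median log2 ratio of the members was -0.19, against -0.01 over all genes. In bulk RNA, fewer cells of a type and less RNA per cell cannot be told apart.

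The cytosolic synthetases held most of the lower calls. Of these 20 genes 7 were lower (35%) and 0 higher, which left 13 in neither class, and the median log2 ratio was -0.30. With no fold minimum, the interval lay below no change in 14 and above it in 4, where 33.5% and 32.1% of all genes did. The interval narrows with more counts, and these genes had 766 (TARS3) to 82193 (TARS1) counts in LKO. Genes tested needed only 20 over both libraries, so the shares are not matched for counts. Summed, the cytosolic synthetases went from 5842 to 4676 CPM, a log2 ratio of -0.32. Without TARS1, which alone holds a large part of the sum, they went from 4453 to 3359 CPM (-0.41). The plot of ratios shows the cytosolic genes spread from CARS1, the lowest, to VARS1.

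**Figure D1:**
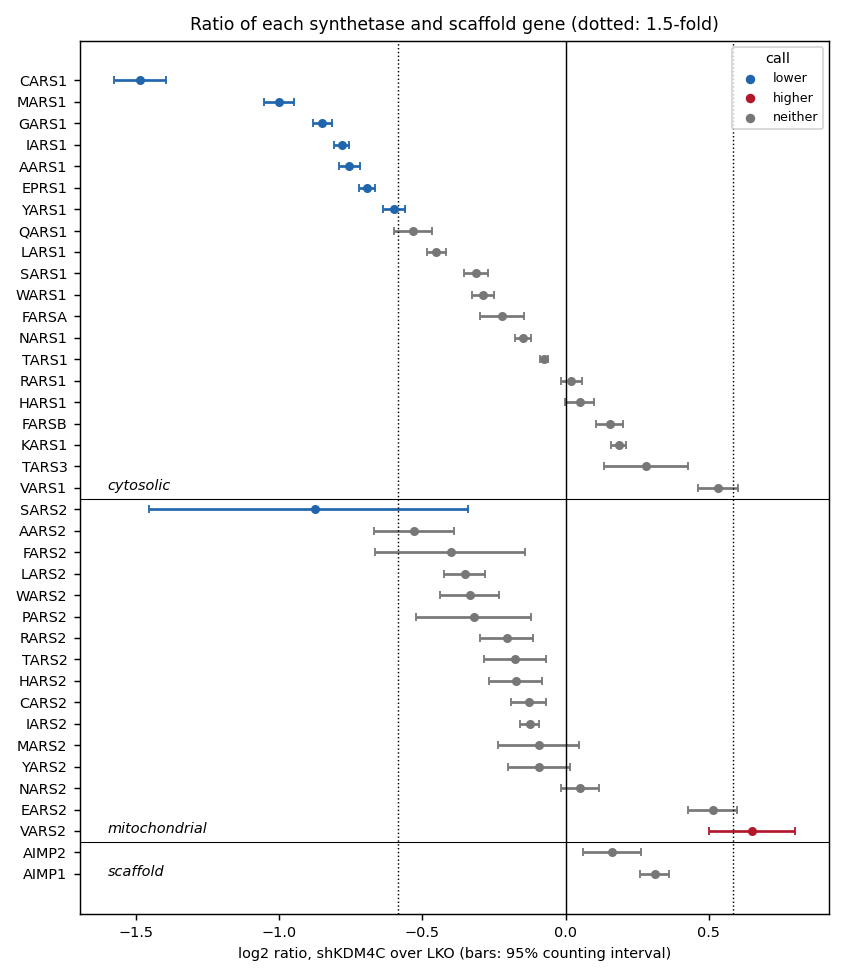
Log2 ratio of shKDM4C over LKO for the 38 genes, by set, with 95% counting intervals as bars and 1.5-fold as dotted lines (1 library per condition). CARS1 is lowest at -1.49 and VARS2 highest at 0.65, and 7 of the 8 genes called lower are cytosolic.

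CARS1, which charges cysteine, was the lowest member. It had 4327 counts in LKO and 1287 in shKDM4C, or 73.1 and 26.1 CPM, a log2 ratio of -1.49 (interval -1.58 to -1.40), so that 35.7% of the LKO level was left. The gene lies on chromosome 11 of GRCh38 from 3000922 to 3057613 and has 23 exons in its canonical transcript. Per kilobase of that transcript its level went from rank 20 of the 38 members in LKO to rank 29 in shKDM4C.

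MARS1 charges methionine, on the initiator tRNA as well as within proteins. It had 9770 counts in LKO and 4067 in shKDM4C (165 and 82.5 CPM), a log2 ratio of -1.0 (interval -1.05 to -0.95). MARS1 shares 355 exon bases with DDIT3 on the opposite strand of chromosome 12. DDIT3, a stress-induced transcription factor also known as CHOP, had 496 and 753 counts and a log2 ratio of 0.87, the opposite direction to MARS1.

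GARS1, the glycine enzyme of both compartments, had 22790 counts in LKO and 10526 in shKDM4C (385 and 214 CPM), a log2 ratio of -0.85 (interval -0.88 to -0.82). Its divergent transcript GARS1-DT, which shares 312 exon bases with it on the other strand, had 845 and 352 counts. KARS1, the lysine enzyme of both compartments, went the other way and was not called, with 22743 and 21528 counts (384 and 437 CPM) and a log2 ratio of 0.18 (interval 0.16 to 0.21). The genes that serve both compartments therefore did not share a direction.

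IARS1, for isoleucine, had 33637 counts in LKO and 16290 in shKDM4C (568 and 330 CPM), a log2 ratio of -0.78 (interval -0.81 to -0.76). AARS1, for alanine, had 19088 and 9417 counts (323 and 191 CPM), a log2 ratio of -0.76 (interval -0.79 to -0.72). EPRS1, the bifunctional enzyme for glutamate and proline, had 30629 and 15762 counts (517 and 320 CPM), a log2 ratio of -0.69 (interval -0.72 to -0.67). In each of these genes the whole counting interval lay beyond 1.5-fold. IARS1 and EPRS1 are also the 2 lower members with no exon overlapped by another annotated gene.

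YARS1, for tyrosine, lay nearest to the threshold among the lower genes. It had 14242 counts in LKO and 7828 in shKDM4C (241 and 159 CPM), a log2 ratio of -0.60 (interval -0.64 to -0.56). The call was lost at -0.58 when the minimum was raised to 200 counts, which changed the scaling. Just outside the threshold stood QARS1, for glutamine, at -0.53 (interval -0.60 to -0.47), which was called lower at -0.61 when total counts replaced TMM.

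The other cytosolic genes ranged from LARS1, the leucine enzyme, at -0.45 to VARS1, the valine enzyme, at 0.53 (interval 0.46 to 0.60). SARS1, WARS1, FARSA and NARS1 lay between -0.31 and -0.15. FARSA and FARSB encode the alpha and beta subunits of the cytosolic phenylalanine enzyme, and they had -0.22 and 0.15, with intervals on opposite sides of no change. TARS3, a paralog of TARS1, had 766 and 775 counts and a log2 ratio of 0.28 (interval 0.13 to 0.43). RARS1 (0.02) and HARS1 (0.05) had intervals that held no change, and their sign turned with total counts.

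TARS1, the threonine enzyme, stood apart by its level rather than its ratio. It had 82193 counts in LKO and 64923 in shKDM4C, or 520 and 493 CPM per kilobase, 2.69 times the level of KARS1, the next gene, in LKO. It made up 25.5% of the summed level per kilobase of the cytosolic synthetases in LKO and 29.3% in shKDM4C. Its log2 ratio was -0.08 (interval -0.09 to -0.06), a narrow interval that excluded no change far inside the 1.5-fold line.

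**Figure D2:**
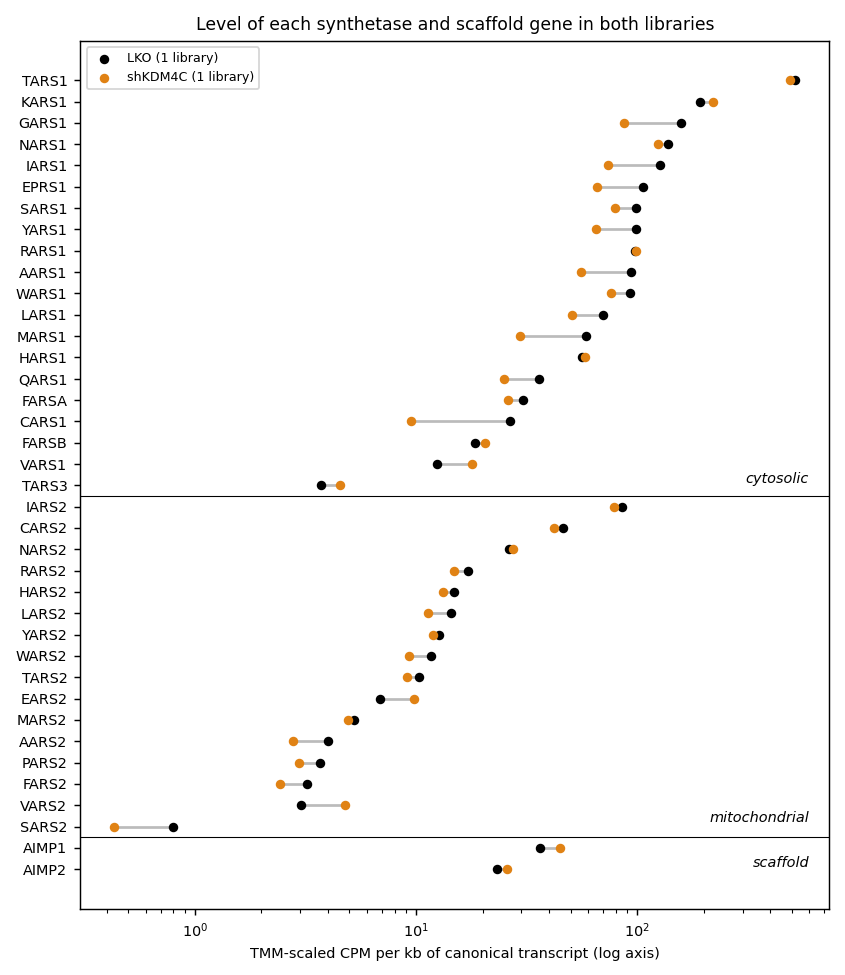
Level of each gene in the LKO (black) and shKDM4C (orange) library as TMM-scaled CPM per kilobase of canonical transcript, on a log axis. Cytosolic genes run from 3.72 (TARS3) to 520 (TARS1) in LKO and mitochondrial genes from 0.799 (SARS2) to 85.8 (IARS2).

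Grouped by catalytic fold, 4 of 9 class I cytosolic enzymes, those built on a Rossmann fold, were lower, with a median log2 ratio of -0.53. Of 10 class II enzymes, built on an antiparallel sheet, 2 were lower, with a median of -0.11. EPRS1, which holds an enzyme of each class, was counted in neither. Of all genes tested 15.7% were lower, a share near that of the class II genes. The difference between the classes was not tested. The summed level of the class I genes went from 1971 to 1387 CPM and that of the class II genes, TARS1 among them, from 3353 to 2970 CPM. In the mitochondrial set the order was the other way, with medians of -0.13 for 9 class I genes and -0.32 for 7 class II genes.

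Of the 9 members that belong to the multisynthetase complex, 3 were lower (MARS1, IARS1 and EPRS1) and the median log2 ratio was -0.45. Of the 13 cytosolic synthetases outside it 4 were lower, where 15.7% of all genes tested were, with a median of -0.22. Lower genes were thus found on both sides. Of the 7 enzymes of the complex among the members 5 had intervals below no change, where 33.5% of all genes tested did. KARS1 lay above no change and the interval of RARS1 held it. Both scaffolds had intervals above no change. AIMP1 had 5945 counts in LKO and 6142 in shKDM4C (100.4 and 125 CPM), a log2 ratio of 0.31 (interval 0.26 to 0.36). AIMP2 had 1642 and 1530 counts (27.7 and 31.0 CPM), a log2 ratio of 0.16 (interval 0.06 to 0.26), and 29.1% of its exon bases are shared with EIF2AK1 on the opposite strand.

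The mitochondrial synthetases showed small differences, mostly below no change. Of these 16 genes 1 was lower and 1 higher, where 15.7% and 13.0% of all genes tested were. This left 14 in neither class, and the median log2 ratio was -0.18. With no fold minimum, the interval lay below no change in 11 genes and above it in 2 (all genes: 33.5% and 32.1%). Their summed level was 783 CPM in LKO and 728 in shKDM4C (log2 ratio -0.11), and their median level per kilobase was 11 and 9.55, against 93.3 and 61.6 for the cytosolic set.

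Both mitochondrial calls rest on genes whose exons are shared with other gene models on the same strand. SARS2, for serine, had only 91 counts in LKO and 41 in shKDM4C (1.54 and 0.832 CPM), a log2 ratio of -0.88 (interval -1.46 to -0.34). Of its exon bases 48.2% are also those of a readthrough gene model, which had 2 and 0 counts. VARS2, for valine, had 642 and 840 counts (10.8 and 17.0 CPM), a log2 ratio of 0.65 (interval 0.50 to 0.80). It shares 63.0% of its exon bases with a long noncoding gene model that is absent from the deposited counts. The call on VARS2 was lost at 0.57 with total counts. The low SARS2 counts, with a counted model over the same exons, are therefore less certain than the others, and the VARS2 call depends on the scaling. Without SARS2 and VARS2, an alternative chosen after seeing the data, 0 mitochondrial genes were lower and 0 higher.

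EARS2, for glutamate, had 2117 counts in LKO and 2516 in shKDM4C (35.8 and 51.0 CPM), a log2 ratio of 0.51 (interval 0.43 to 0.60), just short of the threshold. AARS2, for alanine, stood at -0.53 (interval -0.67 to -0.39) and was called lower at -0.61 with total counts. CARS2, the mitochondrial counterpart of the lowest cytosolic gene, had 5025 and 3828 counts (84.9 and 77.7 CPM) and a log2 ratio of -0.13 (interval -0.19 to -0.07). IARS2, the mitochondrial gene with the highest level, had 17932 and 13683 counts (303 and 278 CPM) and also -0.13 (interval -0.16 to -0.09). The other 10 genes lay between -0.40 (FARS2) and 0.05 (NARS2, whose sign turned with total counts), and MARS2 had 938 and 732 counts (15.8 and 14.9 CPM), with -0.09 (interval -0.24 to 0.05).

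The cytosolic median was 0.13 below the mitochondrial median on the log2 scale. That difference did not hold among the 13 members with no overlapped exon, where the median was -0.11 for 8 cytosolic and -0.21 for 5 mitochondrial genes. Any shared base removed a member, as with AARS1 for 0.42% of its exon bases, and of the lower members only 2 stayed. Whether overlap bore on the counts was not tested. Set against each other within a library, the enzymes of 1 amino acid give a ratio that does not depend on scaling. Of 18 such pairs, formed from 17 cytosolic and 16 mitochondrial genes for 16 amino acids, the cytosolic to mitochondrial count ratio was lower in shKDM4C in 9, higher in 5, and had an interval holding no change in 4. With a 99% interval 8 were lower and 4 higher, as the leucine and serine pairs then held no change. Some genes stand in more than 1 pair, so the pairs are not independent. No share over other pairs of genes was computed to set beside the pair counts here and below. Of single genes tested, 33.5% had intervals below no change and 32.1% above it.

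At least 1.5-fold, 4 pairs were lower and 0 higher. That split rests on the threshold. Just short of it on the higher side were SARS1 to SARS2 (0.57, interval 0.03 to 1.14) and FARSB to FARS2 (0.56, interval 0.29 to 0.82). YARS1 to YARS2 came next on the lower side (-0.51, interval -0.62 to -0.39). The ratio of CARS1 to CARS2 went from 0.861 to 0.336, a log2 change of -1.36 (interval -1.47 to -1.25). The ratio of EPRS1 to EARS2 went from 14.5 to 6.26 (-1.21, interval -1.30 to -1.12), with the cytosolic gene lower and EARS2 above its LKO level. For MARS1 to MARS2 it went from 10.4 to 5.56 (-0.91, interval -1.06 to -0.76) and for IARS1 to IARS2 from 1.88 to 1.19 (-0.66, interval -0.70 to -0.61). EPRS1 against its other partner, the proline enzyme PARS2, changed less, by -0.37 (interval -0.58 to -0.17). AARS1 is lower but its pair changed only by -0.23 (interval -0.37 to -0.08), with AARS2 also below its LKO level.

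**Figure D3:**
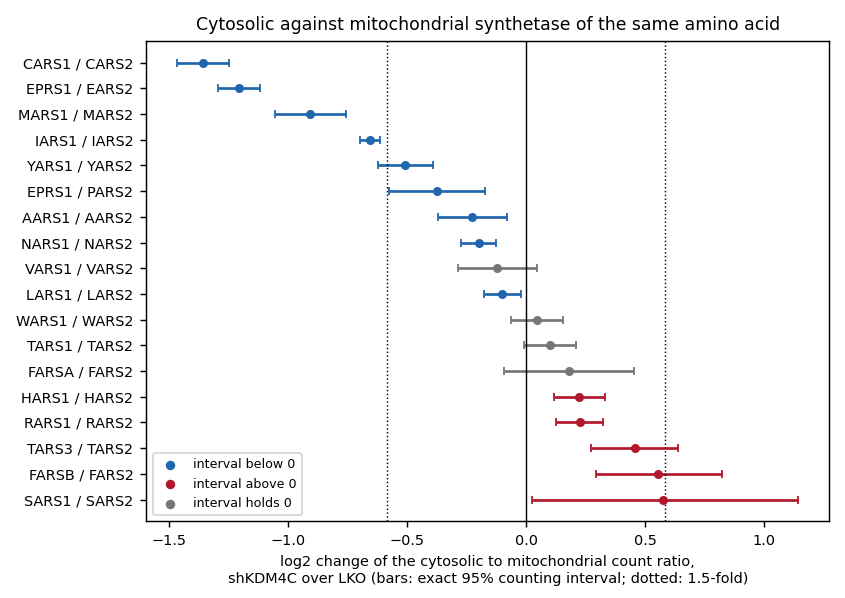
Log2 change from LKO to shKDM4C of the cytosolic to mitochondrial count ratio for 18 pairs, with exact 95% counting intervals as bars and 1.5-fold as dotted lines. The pairs run from -1.36 (CARS1 to CARS2) to 0.57 (SARS1 to SARS2), and the 4 beyond the lower dotted line are those of CARS1, EPRS1 with EARS2, MARS1 and IARS1.

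Read with the promoter matches printed above, 5 of the 6 lower cytosolic genes with a promoter entry held the C/EBP-ATF core, and EPRS1 did not. Of the 10 cytosolic genes that were not lower 2 held it, TARS1 and NARS1, so the core was also present without a lower level. Across all genes tested, 309 held the core in a promoter, of which 19.4% were lower and 18.4% higher, with a median log2 ratio of -0.03. The match is a description of letters and not of binding, which was not measured here at these genes. Promoter entries were not used for VARS2, YARS1, TARS3, AARS2, VARS1 and LARS1.

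**Figure D4:**
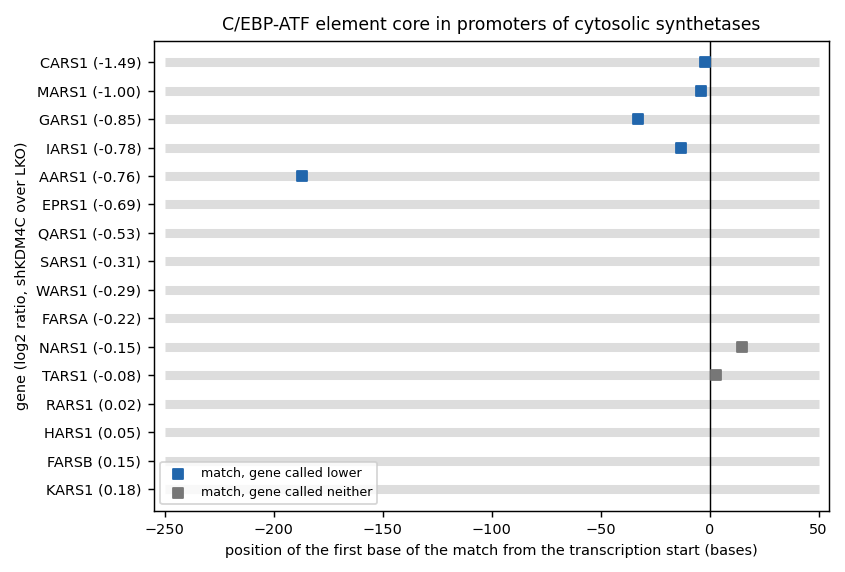
Position of the C/EBP-ATF core in the promoters of 16 cytosolic synthetases, with genes ordered by log2 ratio (in brackets) and grey bars for the 300 bases searched. Positions are in bases from the transcription start of the entry that held the match. The 5 lowest genes each hold 1 match (blue), and TARS1 and NARS1 (grey squares) are the other 2.

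Genes of the integrated stress response, the pathway that ATF4 serves, gave the context. Of 36 such genes 17 were lower and 4 higher, where 15.7% and 13.0% of all genes tested were, and the median log2 ratio was -0.54. Among the 17 lower were DDIT4 (log2 ratio -2.42) and ALDH1L2 (-2.24). Among the 4 higher were ATF3 (1.92) and PPP1R15A (1.79), so the list did not move in 1 direction. ASNS, which makes asparagine and is a common reporter of ATF4, had 234 counts in LKO and 51 in shKDM4C, a log2 ratio of -1.92 (interval -2.40 to -1.49). ATF4 itself had 0.31 (interval 0.29 to 0.34), although its protein is set largely by translation, which RNA counts do not measure. In 9 of 29 genes of the list with a promoter entry the core was found, and 4 of those 9 were lower against 8 of the 20 without it. EIF2AK4 had a log2 ratio of -0.22 (interval -0.26 to -0.17).

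The rest of the translation machinery did not share the lower level of the cytosolic synthetases. Of 12 charging partners outside the members 2 were lower, GATB and MTFMT, which act in mitochondrial glutamine charging and in formylation of the initiator, and 1 was higher, AARSD1. EEF1E1, a further scaffold of the complex, had a log2 ratio of 0.49 and was not called. Of 66 genes of tRNA maturation and modification 3 were lower and 5 higher, where 15.7% and 13.0% of all genes tested were. Of 83 cytosolic ribosomal protein genes 0 were lower and 1 higher (median 0.16), and of 79 mitochondrial ones 1 was lower and 0 higher (median 0.11). Of 42 cytosolic translation factors 0 were lower and 5 higher (median 0.23). Those medians stand above that of the cytosolic synthetases, with no test of the difference.

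**Figure D5:**
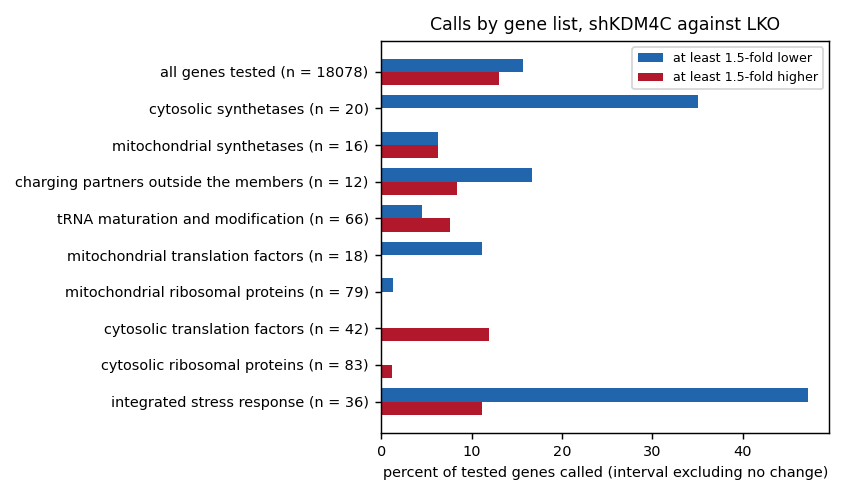
Percent of tested genes called at least 1.5-fold lower (blue) or higher (red) in shKDM4C, by gene list, with the number tested in brackets. The cytosolic synthetases (35% lower) and the integrated stress response (47.2%) have the highest shares lower of the lists plotted, against 15.7% of all genes and 16.7% of the charging partners.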

How the data were processed

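RNA from 1 LKO and 1 shKDM4C library was captured on oligo-dT beads and sequenced in paired ends after a library preparation that marks strand. The authors deposited whole-number read counts per gene. Reads called with CASAVA and checked with FastQC and MultiQC were trimmed with Trimmomatic, aligned to GRCh38 (hg38) with HISAT2 and counted with featureCounts. The methods name DEGseq and DESeq2 for normalization, and the submitters' processing notes name DESeq2. For versions, annotation and strand setting, none is given in the sources used here, so counts of overlapping genes and close paralogs are less certain. The authors' comparison tables, with fold changes, p-values and CPM, were not used.

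Gene IDs were matched to GENCODE v44 (412 were not found). Genes reaching 20 counts in the sum of both libraries were scaled with edgeR 4.0.16 (TMM) in R 4.3.3. Ratios had a prior count of 0.5 and an exact 95% Clopper-Pearson interval, conditional on the sum of both counts. Pairs used the conditional odds ratio of their 4 counts with its exact interval. Levels were divided by canonical transcript length. The calls were tested on simulated data. With 1 library per condition no p-value was computed. Alternatives were DESeq2 1.42.0 size factors, total counts, centring on the median, minimums of 1 and 200 counts, a prior count of 5, a 99% interval, 2-fold or no fold minimum, and the sets without GARS1 and KARS1, without TARS3 or without overlapped members. Python 3.11.15, numpy 2.4.6, pandas 2.3.3 and scipy 1.17.1 were used.

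The members, gene lists and motifs were chosen with earlier results of these data known. Full values are given for called members, the scaffolds, GARS1, KARS1 and members of pairs that changed at least 1.5-fold, and other members by range or ratio. TARS1, QARS1 and others near the threshold were described after their values were seen. Of each other list up to 2 called genes per direction may be named, with ATF4, DDIT3, ASNS and EIF2AK4. EEF1E1 and GARS1-DT were added after their values were seen.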

Additional observations from a re-analysis of the deposited data

How the results depend on the processing

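Of 371 values recomputed under alternatives, 312 stayed within the counting interval of the reported value or, for a count, within 1.5 times it, and 0 reversed a call. For a set median, the medians of its genes' interval bounds were used. Only a gene called lower or higher could count as reversed, by a change of more than 1.5-fold. The alternative scalings moved ratios by far less, so the 0 says little. Total counts lowered each ratio by a log2 shift of -0.08, which gave a cytosolic median of -0.38, 2 mitochondrial genes lower (SARS2 and AARS2), 0 mitochondrial genes higher and 0 members higher. With at least 200 counts, 1664 genes were lower and 1053 higher over all genes, and 0 mitochondrial genes were lower, since SARS2 was no longer tested. At 2-fold, 1348 genes were lower and 1404 higher, with 2 members lower, both cytosolic (CARS1 and MARS1), 1 of them in the complex, 0 mitochondrial genes lower, 0 higher and 0 members higher. With no fold minimum, 6059 genes were lower and 5806 higher, with 25 members lower (14 cytosolic, 11 mitochondrial, 5 in the complex) and 8 higher (4 cytosolic, 2 mitochondrial). Without members with overlapped exons 2 members were lower, and the cytosolic minus mitochondrial median turned from -0.13 to 0.093, over 13 genes in place of 36. Without SARS2 and VARS2 0 mitochondrial genes were lower and 0 higher. Asked for at least 1.5-fold as well, pairs gave 4 lower and 0 higher. RLE size factors, centring on the median, a prior count of 5 and a 99% interval changed no call of a member, but the 99% interval left 8 pairs lower in place of 9 and 4 higher in place of 5. No paired analysis was possible because each condition had 1 library. The spread between cultures was therefore not measured. SARS2, with 91 and 41 counts, had the widest counting interval of the members.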

Other observations

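Matches to the other motifs are given beside their share of all genes tested, with no test. The ETS core CCGGAAG, bound by a large family of growth-related factors, stood in the promoters of 9 of 16 cytosolic and 7 of 14 mitochondrial synthetases, against 10.3% of all promoters and 21.5% of genes tested. Among the cytosolic genes it was found in 2 of 6 that were lower and 7 of 10 that were not. HARS1 and HARS2 lie head to head on chromosome 5, share 108 exon bases and hold the same ETS matches, and their log2 ratios were 0.05 and -0.17. The E-box CACGTG was found in 1 of 16 cytosolic and 3 of 14 mitochondrial genes, where 12.3% of genes tested held it. The NRF1 core GCATGCGC was found in 0 and 2 (6.09% of genes tested) and the GATA core AGATAA in 2 and 0 (8.05%).

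The 3′ UTRs of 4 of the 38 members hold a 7-base word that pairs with guide positions 2 to 12 of either hairpin: LARS1, WARS1 and NARS2 for shKDM4C#1 and TARS3 for shKDM4C#2. None of these 4 genes was called, and 0 of the 8 lower members hold such a word. Of 13222 genes tested with a 3′ UTR, 25.4% hold a word of either hairpin. Which hairpin the sequenced cells carried is not named, so this pooled share is not that of the hairpin used. Only 3′ UTRs were searched, and a word anywhere within those guide positions was counted. Whether the hairpin acted directly on any member was not tested. WARS1, which charges tryptophan and is known to be induced by interferon, had 14496 counts in LKO and 9882 in shKDM4C, a log2 ratio of -0.29. Of 12 interferon response genes 2 were lower and 1 higher, where 15.7% and 13.0% of all genes tested were.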
